A study of Mus musculus with 8 samples.

Results

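The genes described here are 10 of the 27679 genes in the count table: Rock1, Rock2, Ppp1r12a, Ppp1cb, Limk1, Limk2, Cfl1, Cfl2, Ssh1 and Ssh2. They were chosen by name as members of 1 pathway, and each symbol matched 1 mouse Ensembl identifier. The libraries came from megakaryocytes, the polyploid marrow cells that release platelets, of wild-type C57BL/6 mice. Bone marrow cells without lineage markers were isolated by magnetic depletion and kept for 3 days in 1 of 2 milieus. One was a soft gel of 2% methylcellulose, whose Young modulus was 30 to 60 Pa, and the other was liquid medium. Larger, mature cells were then collected on a gradient of bovine serum albumin, so every library is a bulk sample of enriched cells. Each milieu had 4 libraries, which the submitters call independent biological replicates, and the age and sex of the animals were not given in the sources used here.

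These genes encode the core of the pathway by which the small GTPase RhoA sets contractile force and actin filament turnover. The kinases ROCK1 and ROCK2, switched on by GTP-bound RhoA, phosphorylate the targeting subunit of myosin phosphatase and so keep myosin light chains phosphorylated. They also activate the LIM kinases, which phosphorylate cofilin near its amino terminus and stop it from severing actin filaments, and the slingshot phosphatases reverse that step. In megakaryocytes, ROCK and myosin II restrain the extension of proplatelets, and cofilin is needed for normal platelet shape and number. Much of this control acts through phosphorylation, which transcript counts do not measure. The comparison of hydrogel with liquid asks whether a soft surrounding gel that confines the cells changes the transcripts of this machinery.

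Library totals ranged from 27012172 to 49281611 counts, and 13845 genes had enough counts to be tested. All 16 megakaryocyte and platelet markers were detected, with a summed level of 33615 to 54845 CPM (counts scaled to a common library size) in liquid and 27304 to 39758 CPM in hydrogel. Of these, 12 fell and 0 rose, among them the integrin gene Itga2b, from 6352 ± 1122 to 3845 ± 830 CPM. Of 22 tested monocyte and macrophage markers 18 rose and 0 fell, and the 24 of that list summed to 4216 to 9052 CPM in hydrogel against 1128 to 2423 CPM in liquid, with none at 0. Lyz2, for lysozyme, had 883 ± 238 CPM in liquid and 3536 ± 945 CPM in hydrogel, and Cd68 had 43.1 ± 22.6 and 296 ± 101 CPM. Hydrogel 1 and liquid 2 stood apart from their groups. As a mean of centred log2 levels, the macrophage markers scored 0.44 in hydrogel 1, while hydrogel 2 to 4 scored 1.31 to 1.44. Liquid 2 scored −0.23, while the remaining 3 of its group scored −1.69 to −1.12. Of the tested markers of other marrow cells, 2 neutrophil genes rose and 1 fell of 10, 7 mast cell and basophil genes fell of 9, 1 dendritic cell gene rose and 6 fell of 9, and 2 erythroid genes fell of 5. In bulk samples such as these, fewer cells of a type and less RNA per cell cannot be told apart.

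Of the 10 genes, Cfl2 and Ppp1cb were lower in hydrogel, 0 rose and 8 did not pass the test. The test was edgeR's quasi-likelihood test with Benjamini-Hochberg adjustment over all 13845 genes at 0.05. Over all tested genes, 29.3% were called, 15.1% as higher and 14.1% as lower in hydrogel. The share of the 10 genes that fell is thus close to that background. The 0 that rose lie below it, but 10 genes are too few to tell this from the background. At an unadjusted p of 0.05, 4 of the 10 were lower and 0 were higher, beside 21% and 20.2% of all tested genes. DESeq2 called 2 lower and 0 higher, beside 12.2% and 13.4% of the genes to which it gave an adjusted p. The CPM ranges of the 2 milieus did not overlap for 2 of the 10 genes, against 28.4% of all tested genes. No gene of the set changed 2-fold, beside 11.6% of all tested genes, and 10 genes are too few to tell these apart. The median log2 change of the set, hydrogel over liquid, was −0.14, beside −0.01 for all tested genes. Below 0 were 9 of the 10 changes, beside 7113 of the 13845 over all tested genes.

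**Figure D1:**
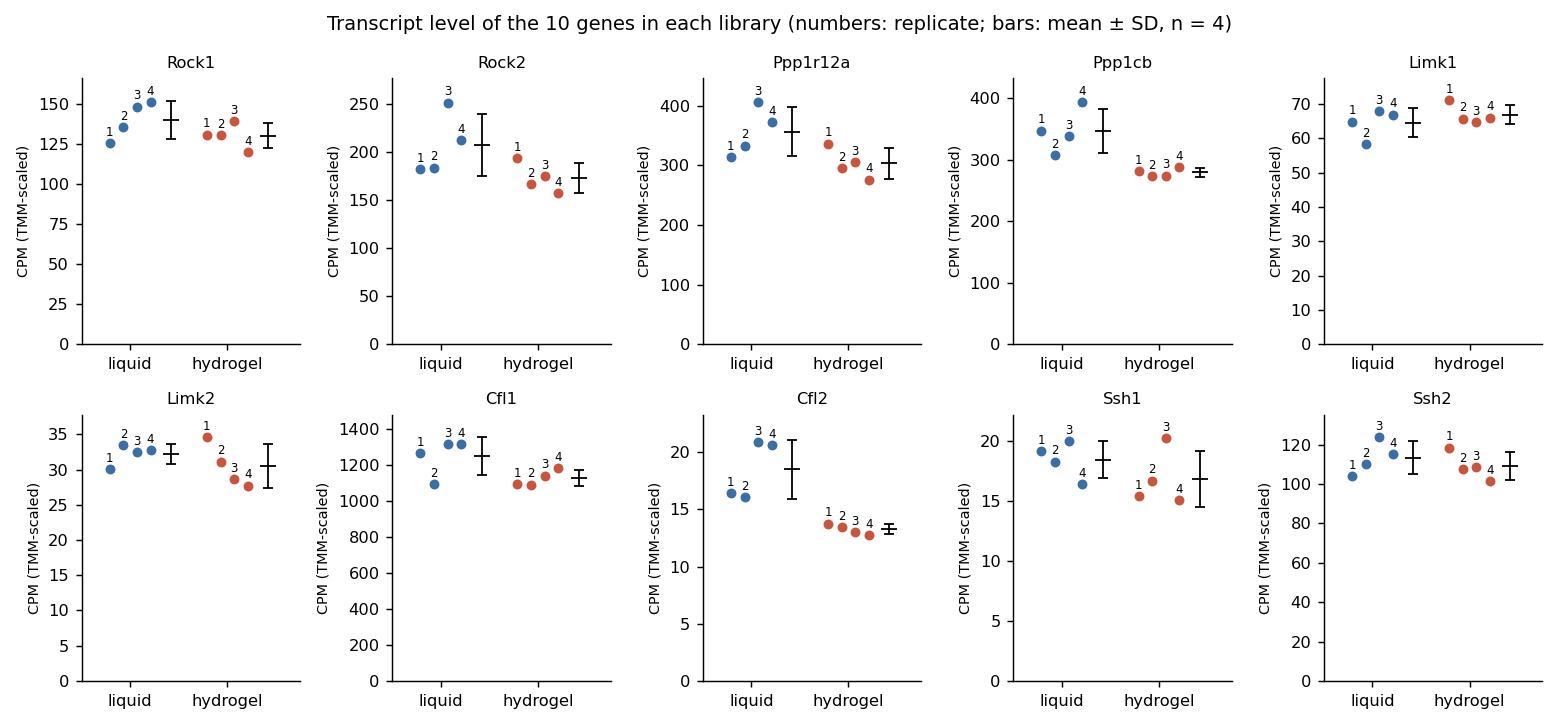
TMM-scaled CPM (vertical axes, from 0) of each of the 10 genes in the 4 liquid (blue) and 4 hydrogel (red) libraries, with replicate numbers above the points and mean ± SD beside them. Only for Ppp1cb and Cfl2 do all hydrogel points lie below all liquid points.

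Neither of the ROCK genes passed the test. Rock1, ENSMUSG00000024290, stood at 126, 135, 148 and 151 CPM in liquid replicates 1 to 4 and at 131, 131, 139 and 119.8 CPM in hydrogel replicates 1 to 4. The ranges overlapped, and the lowest value of all was that of hydrogel 4. The log2 change was −0.11 ± 0.08 (SE), with a 95% interval from −0.28 to 0.06 and an adjusted p of 0.327. Rock2, ENSMUSG00000020580, stood at 183, 184, 252 and 213 CPM in liquid and at 194, 167, 175 and 158 CPM in hydrogel. Liquid 3 was the highest library for Rock2, and hydrogel 1 lay above liquid 1 and liquid 2. Its log2 change was −0.26 ± 0.11 (interval −0.51 to −0.01, adjusted p = 0.104). Without hydrogel 1 and liquid 2 together, the Rock2 change was −0.36 with an adjusted p of 0.0129, and without liquid 2 alone it was −0.32 with an adjusted p of 0.0484. Rock2 was not called in the other 7 omissions of 1 library, and without liquid 3 its change was −0.16 with an adjusted p of 0.234.

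Myosin phosphatase joins a catalytic subunit, encoded by Ppp1cb, to the targeting subunit MYPT1, encoded by Ppp1r12a. Ppp1cb, ENSMUSG00000014956, had 347, 307, 339 and 394 CPM in liquid and 282, 274, 274 and 288 CPM in hydrogel. Every hydrogel library lay below every liquid library, and the 4 hydrogel values were tightly spaced. The fall from 347 ± 36.0 to 279.5 ± 6.77 CPM (SD, n = 4 each) was 1.24-fold, a log2 change of −0.31 ± 0.08 with an adjusted p of 0.0177. That call was lost without hydrogel 2 (adjusted p = 0.0603) and without hydrogel 3 (0.0575), where the log2 change was −0.30 in both cases. A transcript model named Gm43312 shares 17.5% of the exon bases of Ppp1cb on the same strand. It is not among the genes with counts here, and its effect on the Ppp1cb counts was not tested.

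Ppp1r12a, ENSMUSG00000019907, had 314, 333, 406 and 372 CPM in liquid and 336, 295, 305 and 276 CPM in hydrogel. Only hydrogel 1 lay within the liquid range. The log2 change was −0.23 ± 0.10 (interval −0.45 to −0.02, adjusted p = 0.0991). It passed with upper-quartile scaling, at −0.28 (adjusted p = 0.0467), and without hydrogel 1 and liquid 2, at −0.30 (0.0179). The 8-library profiles of Rock2 and Ppp1r12a were the most alike of any pair in the set. The root mean square difference of their centred log2 CPM was 0.045, against 0.070 for the next pair, Limk2 and Ssh2, and 0.28 for the least alike, Limk1 and Cfl2.

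The LIM kinase genes showed small differences. Limk1, ENSMUSG00000029674, had 64.8, 58.4, 67.9 and 66.9 CPM in liquid and 71.1, 65.8, 64.8 and 66.0 CPM in hydrogel. It was the 1 gene of the set with a mean above the liquid mean, by a log2 change of 0.05 ± 0.07 (interval −0.10 to 0.20, adjusted p = 0.593), and the value was −0.01 without hydrogel 1 and liquid 2. Limk2, ENSMUSG00000020451, had 30.1, 33.5, 32.5 and 32.7 CPM in liquid and 34.6, 31.1, 28.6 and 27.7 CPM in hydrogel. Hydrogel 1 was the highest of all 8 libraries for both LIM kinases. The Limk2 change was −0.08 ± 0.09 (interval −0.27 to 0.11, adjusted p = 0.530). For both genes the interval leaves room only for changes well short of 1 on the log2 scale.

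The cofilin genes differed in level, and only Cfl2 passed the test. Cfl1, ENSMUSG00000056201, encodes the non-muscle cofilin and was by far the most abundant transcript of the set. It had 1270.3, 1098, 1318 and 1319.7 CPM in liquid and 1095, 1093, 1143 and 1185 CPM in hydrogel. Liquid 2 fell within the hydrogel range, and the other 3 liquid libraries lay above it. The log2 change of Cfl1 was −0.15 ± 0.09 (interval −0.35 to 0.06, adjusted p = 0.254). A processed pseudogene, Gm6180, is 98.8% identical to Cfl1 over 498 bases, but had only 31 to 82 counts per library where Cfl1 had 31309 to 59908. The gene Snx32 covers 16.5% of the Cfl1 exon bases on the opposite strand and had 110 to 387 counts. The kit keeps the strand, but whether the counting used it is not given in the sources used here.

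Cfl2, ENSMUSG00000062929, encodes the cofilin best known from muscle and showed the largest change of the set. It had 16.4, 16.0, 20.9 and 20.6 CPM in liquid and 13.8, 13.4, 13.0 and 12.7 CPM in hydrogel. All hydrogel libraries lay below all liquid libraries, and the liquid libraries formed a lower pair, 1 and 2, and a higher pair, 3 and 4. The mean fell 1.40-fold, from 18.5 ± 2.61 to 13.2 ± 0.442 CPM (SD, n = 4 each), a log2 change of −0.48 ± 0.11 with an interval from −0.73 to −0.24 and an adjusted p of 0.00936. The call held when any 1 library was left out, with adjusted p from 0.00315 to 0.0315. The depth behind it was 357 to 949 counts per library.

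The start-site windows of the genes that fell, Cfl2 and Ppp1cb, are printed beside that of Cfl1, the abundant paralog that did not pass. Each window runs from 250 bases before to 50 bases after the annotated start, 5′ to 3′ on the strand of the gene, and comes from RefSeq on build GRCm38.p6, which is not the build of the counts. The Cfl2 window is chr12:54862828-54863127 on the minus strand, that of Ppp1cb is chr5:32458720-32459019 on the plus strand, and that of Cfl1 is chr19:5490205-5490504 on the plus strand. Capitals mark the GC box (GGGCGG) and the CCAAT box (CCAAT) on either strand.
Cfl2: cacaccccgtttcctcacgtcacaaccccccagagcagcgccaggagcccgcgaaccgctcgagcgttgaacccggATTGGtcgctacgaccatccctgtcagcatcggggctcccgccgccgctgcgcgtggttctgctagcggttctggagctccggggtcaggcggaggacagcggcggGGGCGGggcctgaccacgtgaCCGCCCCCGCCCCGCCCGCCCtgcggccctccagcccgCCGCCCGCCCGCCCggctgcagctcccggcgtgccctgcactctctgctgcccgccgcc
Ppp1cb: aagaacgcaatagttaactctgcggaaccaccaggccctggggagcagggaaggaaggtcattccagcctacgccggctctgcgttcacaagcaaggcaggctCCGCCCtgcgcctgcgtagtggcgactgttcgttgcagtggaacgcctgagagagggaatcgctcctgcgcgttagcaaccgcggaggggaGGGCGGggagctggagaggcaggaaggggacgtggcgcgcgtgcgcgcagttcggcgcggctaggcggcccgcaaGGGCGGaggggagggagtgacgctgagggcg
Cfl1: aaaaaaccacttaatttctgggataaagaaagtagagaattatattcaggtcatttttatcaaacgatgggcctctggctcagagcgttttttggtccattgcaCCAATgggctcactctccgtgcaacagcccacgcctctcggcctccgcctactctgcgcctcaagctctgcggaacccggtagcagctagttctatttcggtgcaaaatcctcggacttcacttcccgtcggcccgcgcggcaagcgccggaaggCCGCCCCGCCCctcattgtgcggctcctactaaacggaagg

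The Cfl2 window was 75.3% G or C with 38 CpG pairs and held 8 GC boxes, some overlapping, and 1 CCAAT box. The Ppp1cb window was 67.3% G or C with 31 CpG pairs and 3 GC boxes. The Cfl1 window was 54.7% G or C with 22 CpG pairs, 2 overlapping GC boxes and 1 CCAAT box. Over 32851 windows of the same length, the median was 52.7% G or C and 7 CpG pairs, 35.7% held a GC box and 37.4% a CCAAT box. None of the 3 windows held the CArG box, the motif bound by serum response factor (1.63% of all windows), a TATA box (TATAAA, 13.6%), a cyclic AMP response element (TGACGTCA, 1.79%) or the GATA motif AGATAA (11.2%). Windows on 1 chromosome were left out before the search, also from the 32851. In what remained, 9 of the 10 genes had a window, and Rock1 had none. A GC box was present in at least 1 window of each of those 9 genes, so its presence did not separate the genes that fell from the others.

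The slingshot phosphatase genes did not pass the test either. Ssh1, ENSMUSG00000042121, had 19.2, 18.3, 20.001 and 16.4 CPM in liquid and 15.4, 16.7, 20.3 and 15.1 CPM in hydrogel, where replicate 3 exceeded every liquid library. Its log2 change was −0.13 ± 0.11 (interval −0.39 to 0.12, adjusted p = 0.415). Ssh2, ENSMUSG00000037926, was the more abundant, with 104, 110.1, 124 and 115 CPM in liquid and 118, 108, 108.5 and 101 CPM in hydrogel. The ranges overlapped broadly, and the change was −0.06 ± 0.07 (interval −0.22 to 0.11, adjusted p = 0.603), which turned to 0.01 when libraries were scaled by their totals alone. Across the 8 genes that did not pass, no interval reached beyond −0.51 or 0.20.

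**Figure D2:**
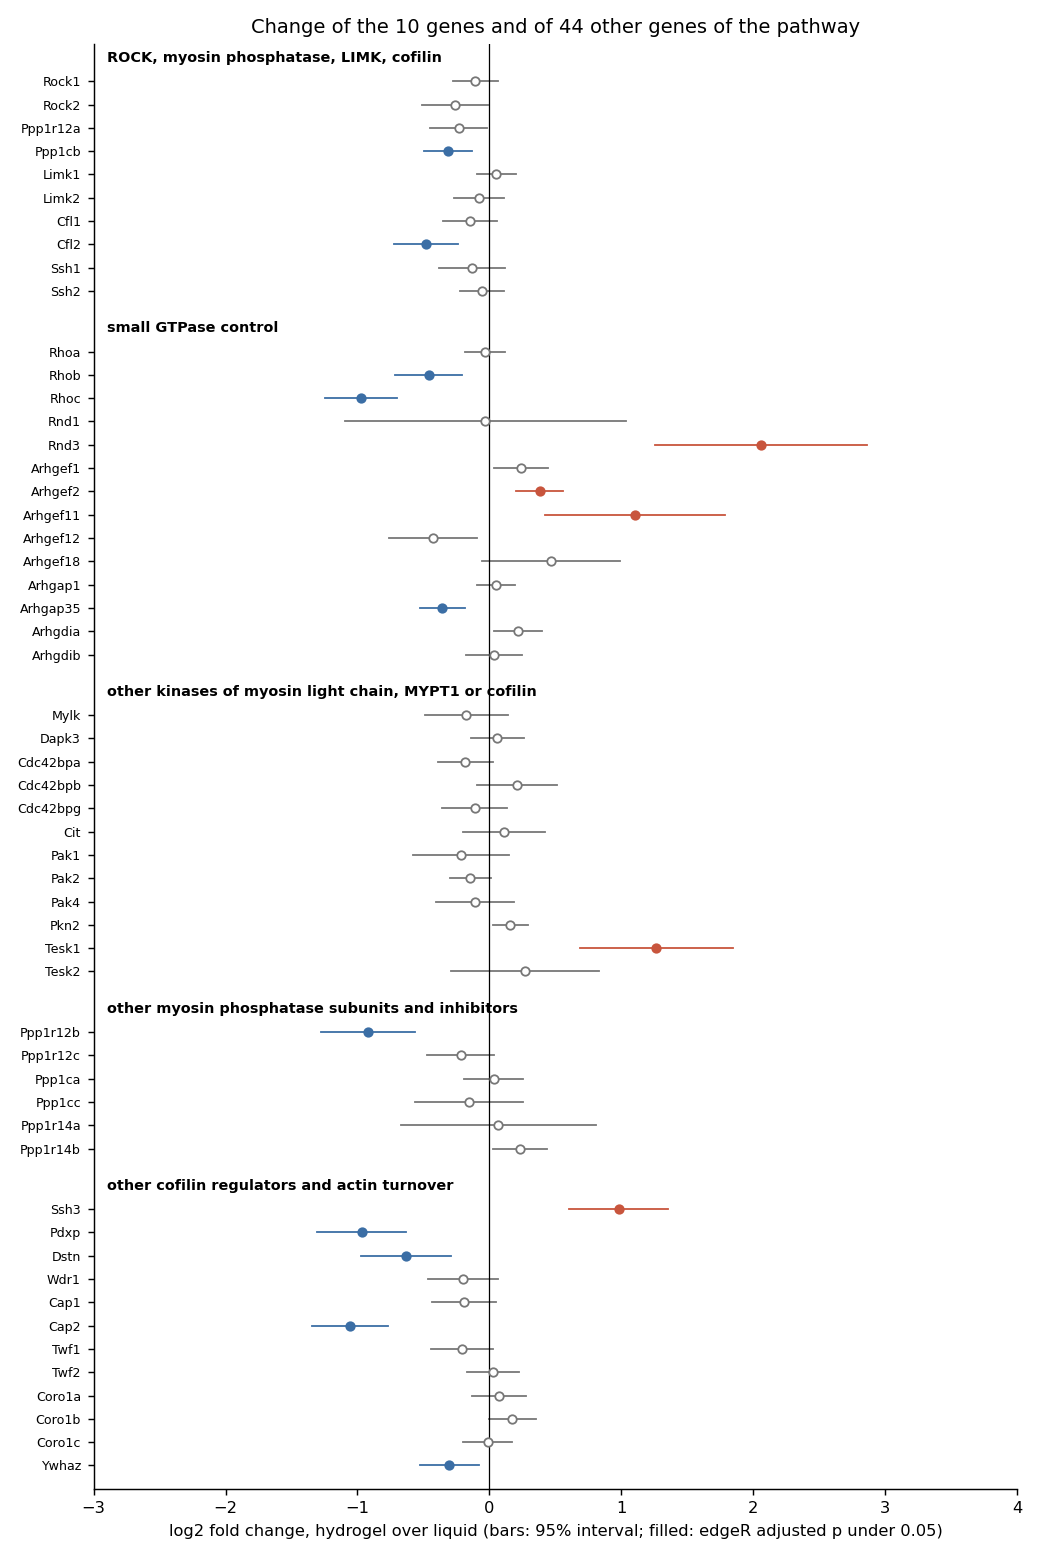
Log2 fold change, hydrogel over liquid (horizontal axis), with its 95% interval for the 10 genes and for 44 of the 45 tested genes of the surrounding pathway, grouped by role. Filled points passed edgeR's test at an adjusted p of 0.05, red for higher and blue for lower in hydrogel. The 10 genes lie between −0.48 and 0.05, and the other pathway genes drawn, which are more numerous, lie between −1.05 and 2.06. The median absolute log2 change was 0.14 for the 10 genes and 0.21 for the 45 tested pathway genes, beside 0.24 for all tested genes.

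Ratios between genes of 1 library do not depend on scaling between libraries, and 6 were compared. The ratio of Cfl2 to Cfl1 counts was 0.0129, 0.0146, 0.0158 and 0.0156 in liquid replicates 1 to 4 and 0.0126, 0.0123, 0.0114 and 0.0108 in hydrogel. The 2 groups did not overlap, with liquid 1 closest to the hydrogel libraries. The ratio was 1.25-fold lower in hydrogel, with a two-sided exact permutation p of 0.0286. This is the smallest p that 4 against 4 libraries can give. Adjusted over the 6 ratios it was 0.171, and a single ratio at the smallest p cannot adjust lower. The difference did not pass, but the test could not have called 1 ratio alone. The ratio of Rock2 to Rock1 was 1.36 to 1.70 in liquid and 1.26 to 1.48 in hydrogel, and that of Limk2 to Limk1 was 0.464 to 0.573 and 0.420 to 0.486. For these ratios the groups overlapped, with adjusted exact p of 0.257 each. The balance of LIM kinase to slingshot counts was 0.698 to 0.770 in liquid and 0.726 to 0.804 in hydrogel (adjusted exact p = 0.257). Ssh2 to Ssh1 and Ppp1r12a to Ppp1cb had log2 differences of 0.08 each, with an adjusted exact p of 0.571.

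**Figure D3:**
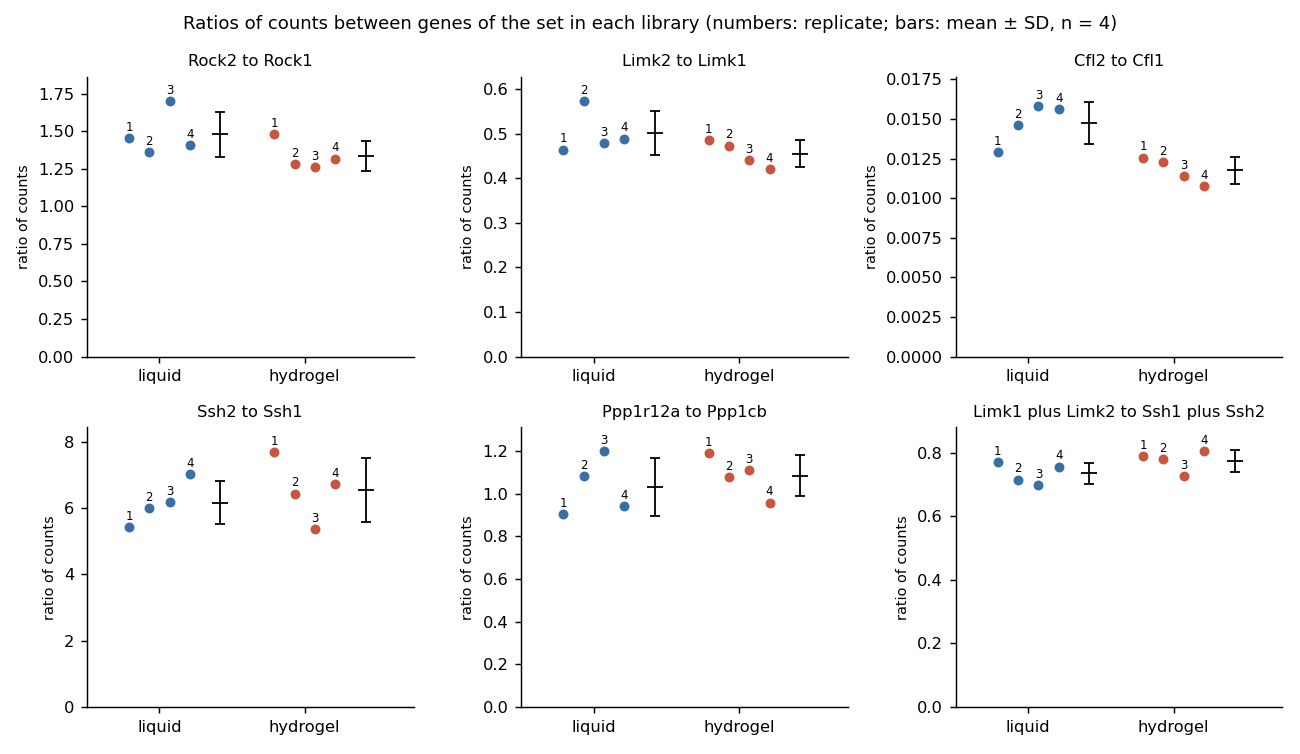
Ratio of raw counts between genes of the set (vertical axes, from 0) in each liquid (blue) and hydrogel (red) library, with replicate numbers above the points and mean ± SD beside them. Only the ratio of Cfl2 to Cfl1 has no overlap between the 4 liquid libraries (0.0129 to 0.0158) and the 4 hydrogel libraries (0.0108 to 0.0126).

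Levels of different genes were compared per kilobase of annotated exons. In liquid, Cfl1 stood at 440.0 ± 37.0 CPM per kilobase, above 99.6% of tested genes. It was followed by Ppp1r12a at 44.4 ± 5.12, Ppp1cb at 31.8 ± 3.30 and Rock2 at 14.96 ± 2.33 CPM per kilobase, and the ranges of these 4 genes did not overlap. Limk1 (9.01 ± 0.597) and Rock1 (7.75 ± 0.654) overlapped each other, as did Ssh2 (6.12 ± 0.451), Cfl2 (5.66 ± 0.800) and Limk2 (5.28 ± 0.238) in turn, and Ssh1 was lowest at 2.08 ± 0.173 CPM per kilobase. In hydrogel the order was the same except that Cfl2, at 4.05 ± 0.135, came after Limk2, at 5.002 ± 0.503, with no overlap between them. The order rests on the lengths. With the longest protein-coding transcript in place of all exons, Rock1 came before Limk1 and Limk2 before Cfl2 already in liquid.

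Within protein families, also per kilobase, the share of the Ppp1cb transcript among the 3 genes for the catalytic subunit of protein phosphatase 1 was 9.04 ± 0.719% in liquid and 7.27 ± 0.439% in hydrogel, with no overlap. Ppp1ca, the highest of these per kilobase, took 90.6 ± 0.722% and 92.4 ± 0.492%. Without division by length, Ppp1ca had 805 CPM and Ppp1cb 347 CPM in liquid, so these shares rest strongly on the exon lengths. Cfl2 made up 0.857 ± 0.0822% of the cofilin and destrin transcripts in liquid and 0.751 ± 0.0441% in hydrogel, and these ranges overlapped. Destrin, encoded by Dstn, is the third protein of this family that severs and depolymerizes actin. Its share was 32.3 ± 3.60% in liquid and 25.8 ± 1.65% in hydrogel, and that of Cfl1 was 66.8 ± 3.56% and 73.4 ± 1.67%. Ssh3 took 17.7 ± 1.98% of slingshot transcripts in liquid and 30.7 ± 5.35% in hydrogel, with no overlap. The share of Ssh1 was 20.9 ± 1.77% in liquid and 16.8 ± 1.38% in hydrogel, also with no overlap. That of Ssh2 was 61.4 ± 2.12% and 52.5 ± 5.64%, with overlap. Shares of a family add up to a whole, so a higher share of Ssh3 lowers those of Ssh1 and Ssh2. In CPM the Ssh1 ranges of the milieus overlapped, and Ssh1 did not pass edgeR's test (adjusted p = 0.415). All family shares depend on the exon lengths used. They are descriptions, and no test was run on them.

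Among the genes around this core, the calls in each direction were near the share over all tested genes. Of 46 other genes of the pathway 45 were tested, of which 6 rose and 8 fell, beside 15.1% and 14.1% of all tested genes, and their median log2 change was −0.01. Among 14 genes for RhoA, its relatives and their regulators, 3 rose and 3 fell. Rhoa itself had 200.3, 173, 191 and 204 CPM in liquid and 184, 187, 196 and 183 CPM in hydrogel, a log2 change of −0.03 ± 0.07 (adjusted p = 0.744). Its relatives Rhoc and Rhob fell, Rhoc from 53.4 ± 8.39 to 27.2 ± 2.99 CPM, or 1.96-fold (adjusted p = 0.000599), and Rhob 1.38-fold (0.0142). Rnd3, a constitutively GTP-bound protein that inhibits ROCK1, rose 4.16-fold, but from only 1.76 ± 0.788 CPM to 7.30 ± 2.55 CPM (0.00253), with hydrogel 1 at 3.51 CPM and the other hydrogel libraries at 8.12 to 8.83 CPM. The exchange factor genes Arhgef2 and Arhgef11 rose 1.30-fold and 2.15-fold (0.00610 and 0.0224), and the call of Arhgef11 was kept without hydrogel 1 or without liquid 2 but lost in the other 6 omissions of 1 library, with adjusted p up to 0.0674. Arhgap35, encoding a GTPase-activating protein, fell 1.28-fold (0.00701).

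A list of 13 other kinases held those that act on myosin light chains, MYPT1 or cofilin, or that are bound by such GTPases. Of these, 2 rose and 0 fell at the adjusted threshold, beside 15.1% and 14.1% of all tested genes. Tesk1, which phosphorylates cofilin as the LIM kinases do, rose 2.40-fold from 10.6 ± 3.57 to 25.4 ± 7.09 CPM (adjusted p = 0.00572), with hydrogel 1 at 15.1 CPM below liquid 2 at 15.9 CPM. Mylk, the myosin light chain kinase, had a log2 change of −0.18 ± 0.14 (0.386). Of 6 tested genes for other phosphatase subunits and inhibitors, Ppp1r12b fell 1.89-fold from 34.9 ± 5.48 to 18.4 ± 4.15 CPM (0.00245), and the other 5 did not pass.

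Of 12 genes for other cofilin regulators and actin turnover, 1 rose and 4 fell, beside 15.1% and 14.1% of all tested genes. Ssh3, the third slingshot gene, rose 1.97-fold from 10.7 ± 1.43 to 21.1 ± 4.56 CPM (adjusted p = 0.00229), and hydrogel 1 was its lowest hydrogel library at 14.5 CPM. Pdxp, which encodes chronophin, another cofilin phosphatase, fell 1.96-fold to 1.97 ± 0.161 CPM (0.00140). Cap2, of the cyclase-associated proteins that speed actin turnover, fell 2.08-fold from 127 ± 19.5 to 61.3 ± 8.63 CPM (0.000561). Dstn fell 1.55-fold from 413 ± 93.0 to 267 ± 19.4 CPM (0.0128), with liquid 2 at 278 CPM inside the hydrogel range of 244 to 291 CPM. The fourth gene that fell was Ywhaz, which encodes a 14-3-3 protein. It fell 1.24-fold (0.0446), is named after its value was seen, and was not called in 6 of the 8 omissions of 1 library.

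The genes with profiles most like each member across the 8 libraries were sought among all tested genes. For Cfl2 Ostm1 was closest, with a root mean square difference of centred log2 CPM of 0.038, and for Ppp1cb they were Mtfr1l (0.027) and Vbp1 (0.031). Cfl1 was most like Coa3 (0.029) and Actr3, a subunit of the Arp2/3 complex (0.037). Rock1 was most like Btbd3 and March7, Rock2 like Aff4 and Homer3, Ppp1r12a like Trappc10 and Fbxo11, Limk1 like Clec16a and Dhrs7, and Limk2 like Dhodh and Rabggtb. Ssh1 was most like Psen2 and Pink1, at 0.054 and 0.061 the loosest matches, and Ssh2 like Prr14l and Nt5c2. All of these rest on 8 libraries in 2 groups and are descriptions.

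The macrophage marker score differed between the milieus and shared 84.3% of its variance with culture. When edgeR was fitted with this score as a covariate, 0 of the 10 genes were called, beside 1.89% of all tested genes as higher and 1.49% as lower, a background at which 0 of 10 says nothing particular about these genes. The log2 changes of Cfl2 and Ppp1cb became −0.23 (adjusted p = 0.709) and −0.13 (0.762). At an unadjusted p of 0.05 that fit had 0 genes of the set lower and 1 higher, which was Limk1 with a log2 change of 0.34, beside 9.53% and 8.86% of all tested genes. Without hydrogel 1 and liquid 2, Cfl2 and Ppp1cb had log2 changes of −0.55 and −0.35 (adjusted p = 0.00210 and 0.00289), and Rock2 and Ppp1r12a were called with them. Of all genes tested without those libraries, 19% were called as lower and 21.6% as higher. The part of other marrow cells in the levels of these genes was not tested beyond these fits.

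**Figure D4:**
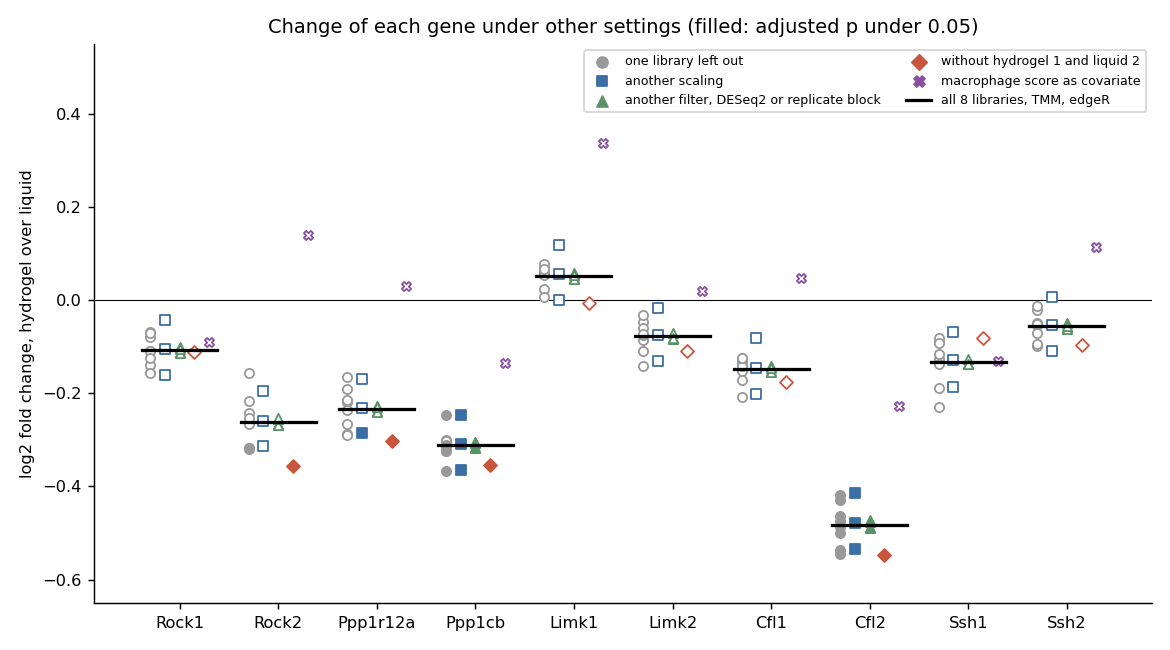
Log2 fold change, hydrogel over liquid (vertical axis), of each of the 10 genes with all 8 libraries (black line) and under other settings (points, filled where the adjusted p is under 0.05). The points of Cfl2 and Ppp1cb stay below 0 in every setting, as do those of Rock1 and Ssh1, which are never filled. With the macrophage score as a covariate, Cfl2 and Ppp1cb lie at −0.23 and −0.13, unfilled.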

How the data were processed

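Polyadenylated RNA from 8 cultures, 4 in liquid and 4 in hydrogel, was sequenced from stranded libraries, per the labels' protocols. The deposited table holds whole-number read counts per Ensembl gene, made by the authors with bcl2fastq, STAR 2.7.10b and HTSeq 0.13.5 on GRCm39, per the submitters' processing notes. For the annotation release and the strand setting of the counting, the sources used here give nothing. Samples were grouped by the labelled culture milieu. Library totals were 27012172 to 37059314 counts in hydrogel and 28825468 to 49281611 in liquid, and no 2 libraries had identical counts.

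Symbols came from a table of gene names. Counts were analysed with edgeR 4.0.16 in R 4.3.3, with filterByExpr, TMM scaling and the quasi-likelihood test on all 8 libraries, hydrogel against liquid, without covariates. P-values were adjusted by Benjamini-Hochberg over the 13845 genes tested. The test was also tried on counts simulated from the means and spread of these libraries. There it recovered 10% of 1.2-fold, 44% of 1.5-fold, 76% of 2-fold and 98% of 4-fold changes, so small changes are mostly missed. CPM values use the TMM-scaled totals, and errors are SD over 4 libraries unless SE is written. Ratios within a library were compared by two-sided exact permutation tests over 70 arrangements. Exon lengths, overlapping genes and near copies (at least 95% identity over 300 bases) came from GENCODE M21 on GRCm38, a build other than that of the counts. Alternatives were DESeq2 1.42.0, other scalings and filters, a replicate block, omitted libraries and a macrophage score covariate. The use of the longest transcript as the length was added after seeing the data.

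The 10 genes and all lists were chosen with earlier results of these data known. All 10 genes are named. From each pathway list up to 3 genes that rose and 3 that fell, by adjusted p, are named, plus Rhoa, Mylk, Dstn and Ssh3. The 2 genes with the smallest root mean square difference in centred log2 CPM (prior count 2) are named for each of the 10. Some genes that this rule picks are not reported here.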

Additional observations from a re-analysis of the deposited data

How the results depend on the processing

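Cfl2 stayed lower in all alternatives run and passed in all of them except that with the macrophage score as a covariate. Of 170 values of the 10 genes under the alternatives, 155 kept their direction and side of the threshold, 4 lost the call, 4 gained one and 7 changed sign. With 1 library left out, 1 to 3 genes of the set were called, all as lower. Over all genes, the lower calls then ranged from 1224 of 14127 without hydrogel 2 to 2446 of 14060 without liquid 2. Without hydrogel 1 and liquid 2 together 4 genes of the set were called, all lower, and among the other pathway genes 25, of which 10 rose and 15 fell. Of all genes tested without those libraries, 21.6% were called as higher and 19% as lower. With the covariate, which shares 84.3% of its variance with culture, 0 of the set were called, beside 1.89% of all tested genes as higher and 1.49% as lower. The 1 other pathway gene called was Arhgef18, which fell there but had a log2 change of 0.46 without the covariate (adjusted p = 0.166). At an unadjusted p of 0.05 in edgeR, that fit had 8 other pathway genes higher and 6 lower, beside 8.86% and 9.53% of all tested genes. In that fit the log2 changes were 0.14 for Rock2, 0.030 for Ppp1r12a, 0.019 for Limk2, 0.047 for Cfl1, 0.11 for Ssh2, 0.13 for Rhoa, 0.52 for Mylk, 0.31 for Dstn, −0.31 for Rnd3, −0.92 for Arhgef11, 0.24 for Rhob and −0.40 for Tesk1, each of the opposite sign to the fit without it. Limk1 was −0.0070 without hydrogel 1 and liquid 2. With library totals alone, Ssh2 was 0.0073 and Rhoa 0.031. The cause of these changes was not tested.

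Among all genes, the calls numbered 4052 (2096 higher, 1956 lower), 4247 with upper-quartile scaling (1755 higher, 2492 lower) and 3793 with library totals alone (2280 higher, 1513 lower). They numbered 468 of 13845 with the covariate, 5633 without hydrogel 1 and liquid 2, and 2700 without hydrogel 2. The replicate block left 2 genes of the set called, both lower, and 16 other pathway genes, 7 higher and 9 lower. Over all 13845 genes, that fit called 2193 as higher and 2045 as lower. Whether the numbers pair the libraries is not given in the labels. Deviations of same-numbered libraries correlated at 0.22, 0.33, −0.13 and 0.10, and hydrogel 1 correlated best with liquid 3 (0.44). With 1 library left out, the lowest adjusted exact p of any ratio was 0.171. A single ratio at the smallest exact p cannot adjust lower than this, so these omissions could not have called 1 ratio alone. With 4 libraries a group, a change whose printed interval includes 0 cannot be told from no change.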

Other observations

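In each of 32 groups of 4 libraries (the 10 genes and 6 ratios in each milieu), no single library stood far enough from the other 3 to be called an outlier by Dixon's test at the 95% level, a test that chance passes about 1 time in 20.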
